A study of Mus musculus with 132 samples.

Results

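During the in vitro differentiation of mouse embryonic stem cells (mESCs) towards blood, 1287 stretches of chromatin near gene starts were listed as open in hematopoietic progenitor cells (HPCs) but not in the mesoderm they arose from. A site was taken when its ATAC-seq peak in HPCs shared no base with any ATAC-seq peak of Flk1+ mesoderm or any CTCF ChIP-seq peak of 416B cells, a myeloid progenitor line, and its midpoint lay within 5 kb of a gene start. Of 29037 HPC peaks, 8888 met no mesoderm peak, 8112 of these met no CTCF peak either, and 1287 of these lay near a start. They belonged to 1227 of 25011 genes with a single locus in the count table, by the nearest start. Most of these genes (1168) held 1 such site, 58 held 2 and 1 held 3.

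The cells were the male E14-TG2a line (strain 129/Ola), kept as undifferentiated mESCs in LIF medium (day 0) or differentiated. Differentiation was without serum, with BMP4, bFGF, Activin-A, SCF and VEGF. Cells were sorted as Flk1+ mesoderm (day 4) and as Ter119- CD41+ CD45- HPCs (day 7). RNA without poly(A) tails, which is rich in transcripts still being made, was sequenced from wild-type cells at the 3 stages (2 undifferentiated, 3 mesoderm and 4 HPC libraries), and from mesoderm and HPCs of P1-CTCF-KO clones (3 and 3 libraries) and P2-CTCF-KO clones (3 and 5 libraries), in which CRISPR-Cas9 had removed the CTCF site beside the Runx1 P1 or P2 promoter. Libraries were named by clone (wild-type C6.1, C8.1 and B9.3 with a second HPC library B9.3-2, P1-CTCF-KO E7.1, E7.2 and E9.1, P2-CTCF-KO D2.1, D10.1 and E9.1 with second HPC libraries of the first pair), and the undifferentiated libraries were technical replicates of 1 culture whose RNA had ribosomal RNA removed, a step not named for the other stages. ATAC-seq was done on wild-type cells alone, described in the methods as a line carrying Venus at Runx1 and a transgene of the Runx1 +23 enhancer. Each peak list came from merged libraries (4 of mesoderm from 2 experiments, and 2 of HPCs that were technical replicates of 1 experiment). The lists held 76766 mesoderm and 29037 HPC peaks, as positions without heights. The presence of a peak thus had no replicate check, and a site absent from the mesoderm list may hold reads below the limit of calling. The same holds for a site absent from the shorter HPC list, and so for sites listed in mesoderm alone.

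Open chromatin marks the promoters and enhancers that transcription factors bind. Blood cells arise from mesoderm through an endothelial stage, and the RUNX, GATA and ETS families of factors, with Runx1, Gata1, Gata2, Fli1 and Spi1 among them, bind regulatory DNA at that step and in the megakaryocyte, erythroid and myeloid lineages that follow. Promoters of broadly used genes are mostly rich in CpG and are open in nearly all cells, whereas many lineage-restricted promoters are poor in CpG and open with the lineage.

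The sequences of 12 sites show what these regions look like at genes whose RNA was higher in HPCs than in mesoderm. They are the sites outside exons that lay nearest to the starts of the named genes higher in HPCs. Each is given on the + strand of mm9, with letters of a GATA, RUNX or ETS motif (defined with the motif counts) in capitals and the rest in lower case.
Ston2, chr12:93024896-93024962, 53 bp upstream of the start, in an intron: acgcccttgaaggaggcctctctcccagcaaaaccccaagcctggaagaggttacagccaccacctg
Tspan32, chr7:150190758-150190867, 138 bp upstream, in an intron: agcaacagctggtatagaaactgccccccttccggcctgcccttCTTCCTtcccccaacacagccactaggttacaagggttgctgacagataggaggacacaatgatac
Thbs1, chr2:117937396-117937520, 153 bp upstream, intergenic: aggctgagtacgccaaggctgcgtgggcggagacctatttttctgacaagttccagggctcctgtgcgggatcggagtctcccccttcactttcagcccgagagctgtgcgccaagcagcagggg
Prkca, chr11:108205388-108205454, 219 bp upstream, in an intron: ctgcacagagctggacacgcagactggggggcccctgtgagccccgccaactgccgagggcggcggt
Itga2b, chr11:102331440-102331584, 315 bp upstream, intergenic: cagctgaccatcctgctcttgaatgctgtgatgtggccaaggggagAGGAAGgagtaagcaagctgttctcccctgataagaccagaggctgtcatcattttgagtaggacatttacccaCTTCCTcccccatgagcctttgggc
Urod, chr4:116666346-116666474, 608 bp downstream, in an intron: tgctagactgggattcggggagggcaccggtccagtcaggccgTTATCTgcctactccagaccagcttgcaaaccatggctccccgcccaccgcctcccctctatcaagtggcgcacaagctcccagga
Rac2, chr15:78402224-78402314, 944 bp downstream, in an intron: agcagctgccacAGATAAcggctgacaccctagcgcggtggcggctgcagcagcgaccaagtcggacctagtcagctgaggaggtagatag
Rasgrp2, chr19:6398603-6398737, 1204 bp upstream, intergenic: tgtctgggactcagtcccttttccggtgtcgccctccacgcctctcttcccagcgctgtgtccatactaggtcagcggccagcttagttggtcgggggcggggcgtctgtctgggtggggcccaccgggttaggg
Fli1, chr9:32347793-32347865, 1208 bp downstream, in an intron: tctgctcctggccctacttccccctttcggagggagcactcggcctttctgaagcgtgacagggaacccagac
Kel, chr6:41656435-41656501, 2144 bp upstream, intergenic: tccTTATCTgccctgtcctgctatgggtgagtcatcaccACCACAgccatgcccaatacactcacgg
Rgs10, chr7:135558078-135558208, 3543 bp downstream, in an intron: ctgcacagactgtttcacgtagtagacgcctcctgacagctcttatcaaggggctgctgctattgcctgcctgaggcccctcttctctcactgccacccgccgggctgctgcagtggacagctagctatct
Mmrn1, chr6:60898275-60898341, 3998 bp downstream, in an intron: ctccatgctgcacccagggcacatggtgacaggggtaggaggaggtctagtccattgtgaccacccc
Within the peak itself, 3 of the 12 (Urod, Rac2 and Kel) held the GATA letters, 1 (Kel) the RUNX letters and 2 (Tspan32 and Itga2b) the ETS letters. Only the exact letters of each motif were marked and counted. The bases GATA with other neighbours, as in the Itga2b peak and on the other strand in the Rgs10 peak, stayed in lower case. A peak without capitals may therefore still hold a site of these families.

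The progenitor-only sites lay farther from gene starts than the other near sites and were narrower. Their median distance was 825 bp, against 101 bp for the 8797 near sites open in both stages and 369 bp for the 11425 near sites open in mesoderm alone. Of the 1287, 54.9% lay within 1 kb of the start, compared with 90.0% of sites open in both stages and 69.9% of mesoderm-only sites. More of them lay downstream of the start than upstream (57.1% downstream), whereas sites open in both stages lay mostly upstream (35.5% downstream). By GENCODE gene models, in which a start can lie inside another transcript, 41.3% of the midpoints were intronic, 37.9% intergenic, 15.1% in a noncoding exon or untranslated region and 5.67% in coding sequence. These are descriptions of peak lists without replicates, and no test was made of them.

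**Figure D1:**
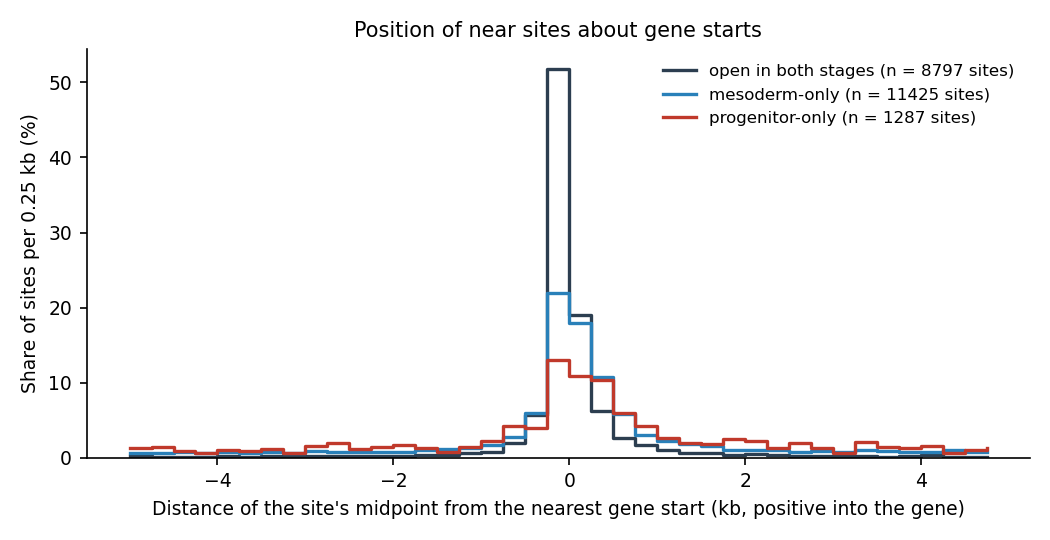
Share of near sites in each 0.25 kb step of distance from the nearest gene start (kb, positive into the gene), for sites open in both stages (dark), mesoderm-only (blue) and progenitor-only (red). Sites open in both stages pile up just before the start, whereas progenitor-only sites are spread more widely. Of progenitor-only sites 14.5% lay within 100 bp of the start and 30.8% at 2001 to 5000 bp. Of sites open in both stages 49.7% and 5.48% did.

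The distance rule left clear neighbours on both sides of its limit. The outermost sites taken lay 4981 bp from Phlda3, 4990 bp from Gstm3 and 4992 bp from Apon, and the nearest sites left out lay 5003 bp from Clec4d, 5016 bp from Amn1 and 5018 bp from H4c17. The median peak width was 86 bp, with 30.5% at 67 bp, the narrowest width in the HPC list. Sites open in both stages were 146 bp wide at the median, with 8.48% at that minimum. In 458 cases (35.6%) a mesoderm peak lay within 500 bp of the site without touching it, so these sites adjoined chromatin that was already open. A further 158 sites lay within 5 kb of more than 1 gene start and were given to the nearest.

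The DNA of the progenitor-only sites was poorer in G and C than that of other near sites. In 200 bp about the midpoint, median GC content was 53%, against 63% in sites open in both stages and 61% in mesoderm-only sites, and the median number of CpG was 4, against 15 and 11. Peaks of the other kinds were likewise assigned only to the gene with the nearest start within 5 kb. By that rule a shared site stood near 448 of the 1227 genes, and a mesoderm-only site near 555. For 336 genes (27.4%) no mesoderm peak was assigned, although a peak nearer to another gene's start may lie within 5 kb. A 416B CTCF peak was assigned to 355 genes.

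ETS and RUNX letters were more frequent in progenitor-only sites than in other near sites, but closer to the shares of all HPC peaks, and SP and NF-Y letters were less frequent than in sites open in both stages. Motifs were searched as exact letters on both strands in the 200 bp windows. The ETS motif AGGAAG stood in 47.6% of progenitor-only sites, 25.5% of sites open in both stages, 25.4% of mesoderm-only sites and 25.4% of equal windows at all gene starts. The RUNX motif TGTGGT stood in 22.1%, 7.96%, 10.4% and 9.80% in the same order. The GATA motif AGATAA stood in 10.3%, 3.76%, 8.56% and 5.29%. Over all 29037 HPC peaks, near starts or not, the shares were 39.7% for ETS, 19.3% for RUNX and 11.2% for GATA. In the 6825 progenitor-only sites farther from starts the shares were higher still, at 61.8% for ETS, 35.4% for RUNX and 15.1% for GATA.

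Letters typical of broadly active promoters followed the opposite order. SP (GGGGCGG) stood in 12.1% of progenitor-only sites, 37.1% of sites open in both stages and 24.6% of mesoderm-only sites, and NF-Y (CCAAT) in 18.0%, 40.0% and 20.0%. Among the other motifs, MEIS (TGACAG) stood in 19.5% of progenitor-only sites and 13.0% of sites open in both stages, and AP-1 (TGANTCA) in 9.17% and 3.49%, where all HPC peaks had 16.7% and 8.28%. MYB (CAACTG) stood in 130 of the 1287 and 594 of the 8797, SOX (ACAATG) in 8.31% and 4.39%, and the E-box CAGCTG in 15.8% and 11.3%. KLF (CCACCC) stood in 23.1% and 26.5%, TEAD (GGAATG) in 8.16% and 7.42%, FOX (TGTTTAC) in 2.18% and 1.74%, and the promoter form of ETS (CCGGAAG) in 5.28% and 13.9%. No 2 of these motifs share all their letters, but neighbouring motifs can share bases in a window.

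GC content moved with these shares. Among sites of 40 to 50% GC, ETS stood in 56.3% of 419 progenitor-only sites, 33.8% of 471 sites open in both stages and 31.2% of 1204 mesoderm-only sites. RUNX stood in 30.5%, 15.1% and 17.4%. GATA, however, stood in 17.7%, 17.6% and 30.6%, so that at this GC content it was no more frequent in progenitor-only sites than in the sites open in both stages and less frequent than in mesoderm-only sites. At 60% GC or more the ETS shares came closer, with 25.7% of 315 progenitor-only sites, 22.3% of 5823 sites open in both stages and 20.0% of 6283 mesoderm-only sites, and the RUNX shares were 7.94%, 6.32% and 6.05%. SP came close to the mesoderm-only sites at like GC content, with 1.19%, 6.16% and 1.33% at 40 to 50% GC and 36.8%, 47.8% and 38.5% at 60% or more, and NF-Y stood in 20.8%, 45.9% and 28.7%, and in 11.4%, 36.1% and 15.2%.

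**Figure D2:**
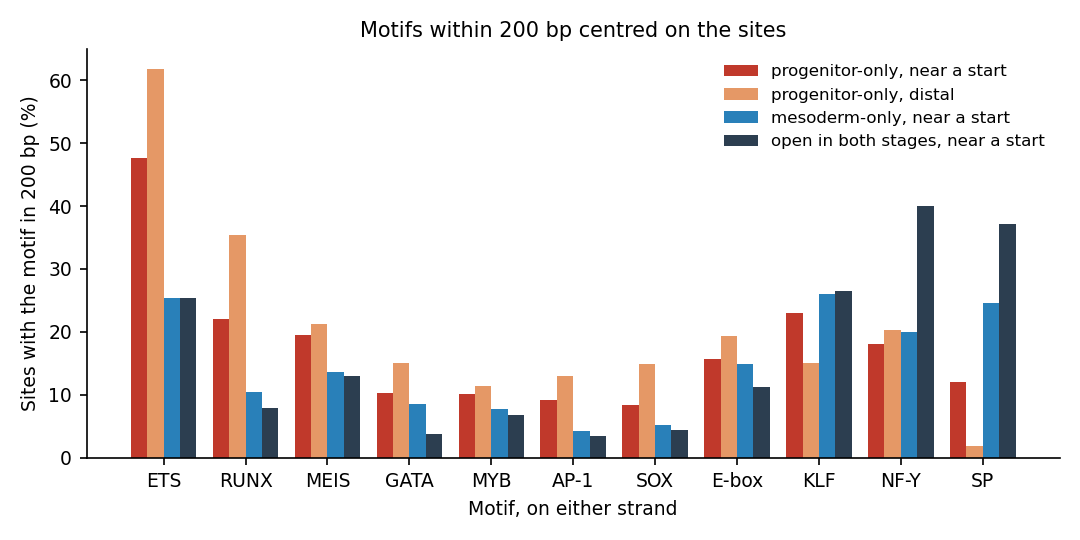
Share of sites (%) with each motif on either strand within 200 bp, for progenitor-only sites near a start (red), progenitor-only distal sites (orange), mesoderm-only near sites (blue) and near sites open in both stages (dark). ETS and RUNX shares of progenitor-only near sites lie between those of the distal sites and those of the other near sites, and SP and NF-Y are highest in sites open in both stages.

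The genes beside these sites included some of the erythroid, platelet and leukocyte genes that define blood. A progenitor-only site stood near 10 of 30 erythroid, heme and iron genes, 7 of 33 megakaryocyte and platelet genes, 11 of 50 leukocyte and myeloid genes and 8 of 34 endothelial genes, against 1227 of all 25011 genes (4.91%). It stood near only 2 of 40 hematopoietic transcription regulators, Fli1 and Spi1, and near 2 of 27 cytokine and growth factor receptors of blood cells, Csf2ra and Il3ra. Of these 40 regulators, 19 had a near site open in both stages and 18 a mesoderm-only site. In the erythroid, platelet, leukocyte and endothelial lists, 13, 8, 6 and 14 genes had a near site open in both stages. A mesoderm-only site stood near 10, 12, 16 and 17 genes in the same order. Over all 25011 genes the counts were 7475 and 8600, so near open sites at these genes were not particular to the progenitor-only set. Among 29 primitive streak and mesoderm genes Wnt5a alone had a progenitor-only site, among 12 pluripotency genes Sox2 alone, and among 18 smooth muscle, cardiac and stromal genes none.

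The RNA libraries held 7805102 to 24406998 counts, most of them in ribosomal RNA and multi-locus entries, and the remaining genes had 900145 to 1302151 counts in wild-type HPCs, 1955010 to 2134615 in mesoderm and 4858660 to 7748567 in undifferentiated mESCs. Stage markers followed the labels. A summed set of 10 HPC markers was at 170 to 276 CPM (counts scaled to a common library total, with TMM factors) in wild-type HPCs and 12.5 to 32.3 in mesoderm, and 7 mesoderm markers were at 44.6 to 78.6 in mesoderm and 3.72 to 17.6 in HPCs. A few wild-type libraries stood apart. In mesoderm B9.3, 8 endothelial markers summed to 108.7 CPM, against 2.46 in C6.1 and 11.7 in C8.1, and in HPC B9.3, 10 muscle and stromal markers summed to 148.7 CPM, against 3.81 to 6.24 in the other 3 HPC libraries. In bulk RNA, fewer cells of a type and less RNA per cell cannot be told apart.

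Genes with a progenitor-only site were more often higher in HPCs than in mesoderm than genes were at large, and about as often lower. Of 1227 genes, 779 had enough counts to be tested in the wild-type libraries. Of these 152 (19.5%) were called higher in HPCs at an adjusted p under 0.05 and a log2 fold change over 1 in size, where 10.8% of all 12899 tested genes were. Another 102 (13.1%) were called lower, where 12.5% of all tested genes were, a count that fell to 67 (12.5%, against 13.3%) without the undifferentiated libraries in the fit. The median log2 fold change was 0.06 over the members and -0.01 over all tested genes, and most of the tested members passed the test in neither direction (edgeR quasi-likelihood test with Benjamini-Hochberg adjustment). Every HPC library lay above every mesoderm library for 211 of the 1227 genes (17.2%), as for 2224 of all 25011 genes (8.89%), and every HPC library lay below for 131 (10.7%), as for 2310 (9.24%).

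**Figure D3:**
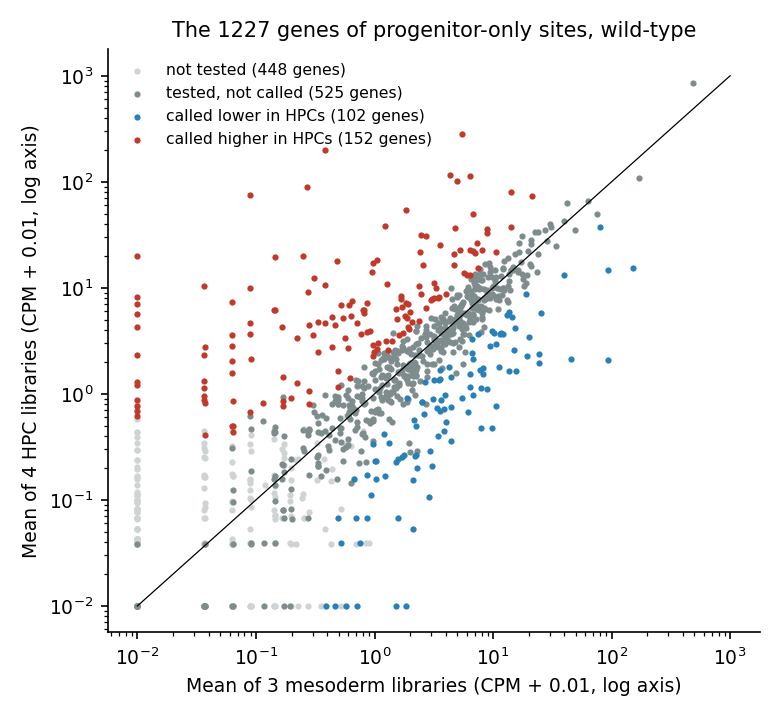
Mean CPM over 4 wild-type HPC libraries against mean CPM over 3 mesoderm libraries (both plus 0.01, log axes) for the 1227 genes with a progenitor-only site. Genes called higher in HPCs (152, red) reach down to genes with no mesoderm counts at the left edge, those called lower (102, blue) lie below the line of equal level, and 448 genes (light grey) had too few counts to be tested.

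Many of the genes had few or no counts at any stage. No counts at all were found in the 9 wild-type libraries for 166 of the 1227, and 332 of the 448 untested genes had at most 10 counts over the 9. Per kilobase of gene span, the median level over the 1227 genes was 0.0190 CPM in undifferentiated mESCs, 0.0264 in mesoderm and 0.0301 in HPCs, while over all 25011 genes it was 0.00996, 0.00733 and 0.00509. In single libraries the median of the 1227 genes was 0.0180 to 0.0253 in mesoderm and 0.0224 to 0.0286 in HPCs, which overlap. Over all genes the lowest such median was 0 in both stages. At least 1 CPM in every library of a stage was reached by 492 members (40.1%) in undifferentiated mESCs. In mesoderm 439 (35.8%) and in HPCs 455 (37.1%) reached it. Over all genes the shares were 30.3%, 25.2% and 24.1%, and the stages differed in depth and in number of libraries. The step from undifferentiated mESCs to mesoderm took 122 members higher (15.7%, against 10.7% of all tested genes) and 94 lower (12.1%, against 13.7%). The undifferentiated libraries came from 1 culture and were prepared differently, as described, so that the other stages supply most of the spread between cultures. With both summed to 1 sample, assumed to vary like the other groups, 49 members were higher (6.12%, against 4.21%) and 37 lower (4.62%, against 4.48%).

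Every erythroid gene with a progenitor-only site that could be tested was higher in HPCs (9 of 9, of 10 with a site), as was every tested gene of the whole list (27 of 27), so the count does not set apart the genes with a site. Among them were the globin genes. Hba-x, which encodes the embryonic zeta globin chain, was at 0, 0.0807 and 0.157 CPM in the 3 mesoderm libraries and at 32.6, 57.6, 100.4 and 108 CPM in the 4 HPC libraries, a ratio of 735 (95% counting interval 251 to 3565). Hbb-y, an embryonic beta-like globin, was at 0, 0 and 0.0784 CPM in mesoderm and at 7.41 to 14.2 CPM in HPCs, a ratio of 329 (58.6 to 13027). Adult Hbb-b1 had no mesoderm counts and 0.266 to 1.23 CPM in HPCs, at least 8.09-fold higher. The mesoderm and HPC groups did not overlap for any of the 3. Hbb-b2, with sites 2296 and 4792 bp from its start, had no counts in wild-type cells. Globin genes are near-copies of each other and Hbb-b1 and Hbb-b2 share their spans with the entries Hbb-bs and Hbb-bt, so their counts are uncertain.

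Red-cell surface and heme genes followed. Ermap (an erythroblast membrane protein) and Kel (the Kell blood group protein) had no mesoderm counts. Ermap reached 5.38, 5.44, 8.1 and 9.17 CPM in HPCs, and Kel 4.74, 5.49, 6.03 and 6.24 CPM, at least 71.2-fold and 58.0-fold higher. The heme enzymes were transcribed before. Fech, which inserts iron into heme, was at 1.86, 2.20 and 3.11 CPM in mesoderm and at 13.8, 19.3, 26.0 and 28.8 CPM in HPCs (log2 fold change 3.24 ± 0.31 SE, adjusted p = 3.48e-05, edgeR). Urod, which acts at an earlier step of the same pathway, rose by 2.79 ± 0.43 (adjusted p = 0.000697) on the log2 scale in the same test. The Urod site lies within 5 kb of the start of Hectd3 as well.

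Platelet and megakaryocyte genes were higher in HPCs in 6 of 6 tested cases, of 7 with a site, against 28 of 30 in the whole list. Itga2b, which encodes CD41, the antigen used to sort the HPCs, was at 0.655, 1.41 and 1.61 CPM in mesoderm and at 25, 27.2, 45.6 and 55.1 CPM in HPCs (log2 fold change 4.88 ± 0.40 SE, adjusted p = 1.71e-05, edgeR). Because of that gate its level is a check of the sort. Thbs1, which encodes the platelet granule protein thrombospondin 1, was at 11.2 and 15.4 CPM in undifferentiated mESCs, 0.164, 0.404 and 0.549 CPM in mesoderm and 78.8, 91.5, 280.3 and 341 CPM in HPCs. It thus fell at the first step (log2 fold change -5.01 ± 0.72 SE, adjusted p = 0.000628, edgeR, and adjusted p = 0.00519 with the libraries of the 1 undifferentiated culture summed) and rose at the second (8.91 ± 0.74, adjusted p = 1.84e-05), with no overlap between stages. Its site also lies near the start of Gm13986.

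Plek (pleckstrin, a platelet signalling protein) was at 0, 0 and 0.784 CPM in mesoderm and 50.7, 62.2, 121.7 and 122.6 CPM in HPCs (log2 fold change 8.15 ± 0.78 SE, adjusted p = 3.48e-05, edgeR). Tubb1, the beta tubulin of platelets, had no mesoderm counts and 14.8 to 26.6 CPM in HPCs, at least 216-fold higher. Mmrn1 (multimerin 1, a platelet granule protein), with 2 sites, had a ratio of 113 (38.3 to 551). Rasgrp2, the exchange factor that activates platelet integrins, rose by 4.87 ± 0.63 (adjusted p = 0.000224). P2ry12, the platelet ADP receptor, had 2 counts in all HPC libraries and could not be tested, although its site was 315 bp wide.

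Of 11 leukocyte genes with a site, 5 could be tested and 4 were higher in HPCs, against 23 of 30 tested in the whole list. Dock2, an exchange factor for Rac in blood cells, was at 0, 0.161 and 0.235 CPM in mesoderm and at 4.65, 4.65, 6.83 and 8.30 CPM in HPCs (log2 fold change 5.25 ± 0.55 SE, adjusted p = 5.29e-05, edgeR). Alox5ap, needed for leukotriene synthesis, rose by 3.75 ± 0.78 (adjusted p = 0.00402). Rac2, a small GTPase of blood cells, had 1 mesoderm count against 27 HPC counts, a ratio of 27.3 (4.50 to 1118).

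The others had hardly any reads. Ptprc, which encodes CD45 and whose protein the sort selected against, had 5 counts over the 4 HPC libraries with a site 16 bp from its start. Cd53 had 7 and Fcgr3 5, each with a site 3 bp from its start, and Cd33 had 1 (68 bp) and Fcer1g 8 (51 bp). None of these 5 genes exceeded 0.517 CPM in any wild-type HPC library. Csf2ra, an alpha chain of the GM-CSF receptor, did not pass the test (log2 fold change -0.08 ± 0.77 SE, adjusted p = 0.977), and Il3ra, an alpha chain of the IL-3 receptor, was not tested. Over all members, 186 had a site within 100 bp of the start, of which 33 (17.7%) had no HPC counts and 101 (54.3%) a mean under 1 CPM. Among the other 1041 members these were 259 (24.9%) and 586 (56.3%).

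**Figure D4:**
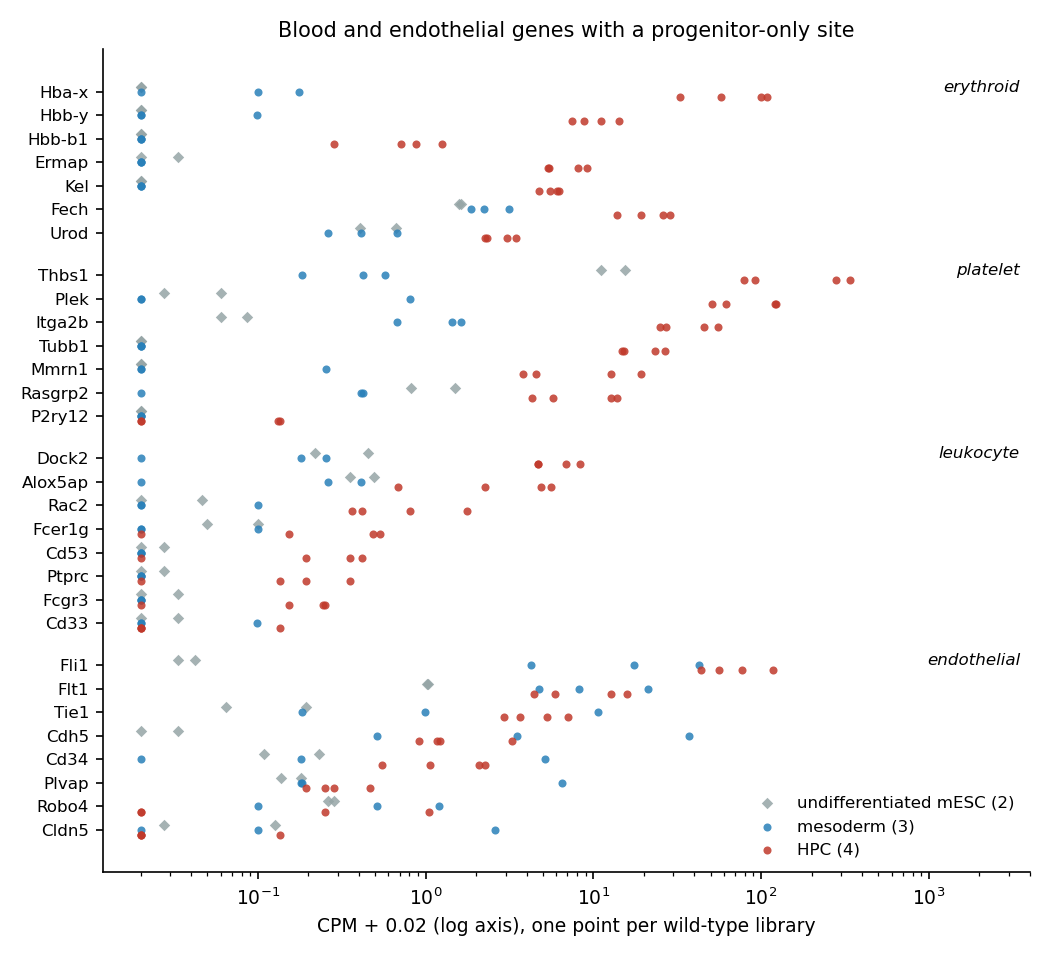
CPM plus 0.02 (log axis) of erythroid, platelet, leukocyte and endothelial genes with a progenitor-only site, 1 point per wild-type library (2 undifferentiated mESC, 3 mesoderm and 4 HPC). HPC points of the erythroid and platelet genes lie apart from mesoderm points except for P2ry12, whereas for each endothelial gene the highest mesoderm point is B9.3.

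Calls of several endothelial genes with a progenitor-only site changed at both steps when mesoderm B9.3 was left out. Of 8 with a site, 7 were tested, and 6 were called higher in mesoderm than in undifferentiated mESCs. Without mesoderm B9.3 these were 4 of 6 tested (Cdh5, Fli1, Flt1 and Tie1), and with the undifferentiated libraries summed to 1 sample 3 of 8 (Cdh5, Fli1 and Flt1). Cd34 was at 0 and 0.161 CPM in the other mesoderm libraries and at 5.10 CPM in B9.3, against 0.0885 and 0.213 CPM in undifferentiated mESCs. From mesoderm to HPCs, 1 was called higher (Fli1) and 1 lower (Cdh5), as 2 and 9 were of the 20 tested genes of the whole list. Fli1, an ETS factor of endothelium and megakaryocytes, was at 4.26, 17.5 and 42.7 CPM in mesoderm and at 44.0, 55.8, 76.7 and 117.4 CPM in HPCs (log2 fold change 1.76 ± 0.58 SE, adjusted p = 0.0408, edgeR). The Fli1 call was lost in 8 of 16 alternatives, with adjusted p of 0.0835 without the undifferentiated libraries, 0.0588 with them summed, and 0.0565 without HPC C6.1, 0.103 without HPC C8.1, 0.0595 without mesoderm C6.1 and 0.131 without mesoderm C8.1, while without mesoderm B9.3 it was 0.00253. Cdh5, which encodes VE-cadherin, was at 0.491, 3.47 and 37.1 CPM in mesoderm and at 0.897, 1.16, 1.20 and 3.28 CPM in HPCs (-3.18 ± 0.98, adjusted p = 0.0310), with overlapping groups. Without mesoderm B9.3, Cdh5 was no longer called (-0.54 ± 0.63, adjusted p = 0.584), nor was it without HPC B9.3, C6.1 or C8.1 (the highest adjusted p was 0.0834). Without mesoderm B9.3, Cd34 (3.72 ± 1.0, adjusted p = 0.0162) and Tie1 (2.82 ± 0.62, adjusted p = 0.00538) were called higher. Flt1 (0.57 ± 0.45, adjusted p = 0.395) and Robo4 (0.24 ± 1.31, adjusted p = 0.938) were not called without that library either. The other regulator with a site, Spi1 (PU.1, a myeloid ETS factor), had 1 mesoderm count against 26 HPC counts, a ratio of 26.3 (4.32 to 1078), and its call was lost without mesoderm C8.1 (adjusted p = 0.0577).

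Members outside the lists were also among those called higher with the lowest adjusted p. Tspan32, a tetraspanin of blood cells, was at 0.157, 0.164 and 0.404 CPM in mesoderm and at 16.4, 17.5, 22.4 and 23.8 CPM in HPCs (log2 fold change 6.28 ± 0.35 SE, adjusted p = 2.92e-06, edgeR). Uba7, the activating enzyme for ISG15, rose by 5.54 ± 0.34 (adjusted p = 3.87e-06). Prkca (protein kinase C alpha) was at 2.90, 5.40 and 8.07 CPM in mesoderm and at 159, 268, 299 and 395 CPM in HPCs (5.68 ± 0.44, adjusted p = 1.52e-05). Rgs10, a regulator of G-protein signalling, had 3 mesoderm counts and 632 HPC counts, a ratio of 213 (72.6 to 1036). Ston2 (stonin 2, an endocytosis adaptor) rose by 4.89 ± 0.40 (adjusted p = 1.80e-05), after a fall from undifferentiated mESCs to mesoderm (-2.38 ± 0.41, adjusted p = 0.00171, and 0.0156 with the undifferentiated libraries summed). Mfsd2b, a sphingosine-1-phosphate transporter of red cells and platelets, rose by 4.81 ± 0.40 (adjusted p = 1.84e-05).

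A site listed in HPCs but not in mesoderm also stood near genes whose RNA fell. Unc5c, a netrin receptor, was at 0.146 and 0.251 CPM in undifferentiated mESCs, 70.2, 91.0 and 116.5 CPM in mesoderm and 0.224, 0.345, 1.86 and 5.79 CPM in HPCs, so that it was high in mesoderm alone (log2 fold change from mesoderm to HPCs -5.44 ± 0.69 SE, adjusted p = 0.000193, edgeR). Fgd5, an endothelial exchange factor for Cdc42, had a site 100 bp before its start and no mesoderm peak assigned to it. Its RNA was at 12.8, 13.5 and 20.9 CPM in mesoderm and at 0.930, 1.5, 1.68 and 2.41 CPM in HPCs (-3.29 ± 0.30, adjusted p = 2.67e-05). Trim71, an RNA-binding protein of early embryos, fell by 4.39 ± 0.49 (adjusted p = 8.12e-05) and Yap1, the Hippo pathway coactivator, by 3.58 ± 0.38 (adjusted p = 6.04e-05). Peg10, an imprinted gene whose site also lies near Sgce, was at 112.4, 144.2 and 202 CPM in mesoderm and 7.93, 9.70, 15 and 28.9 CPM in HPCs (-3.30 ± 0.40, adjusted p = 0.000135).

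The remaining genes of this group were Rps6ka2 and Prkd1, both kinases, Efnb2, the ephrin ligand of arteries, Luzp1, a cytoskeletal protein, and Vangl2, a planar polarity protein. Their log2 fold changes ran from -3.19 to -2.45 with adjusted p from 7.57e-05 to 0.000193 (edgeR). In each of the 10 lower genes the HPC libraries all lay below the mesoderm libraries, as the naming rule required. Sites of 4 of these 10 genes (Fgd5, Luzp1, Yap1 and Vangl2) had no shared open site near the same start. The sites of Fgd5, Trim71, Yap1, Peg10, Rps6ka2, Prkd1 and Luzp1 were 67 bp wide, the narrowest width in the HPC list, as were 30.5% of all progenitor-only sites. Those of Vangl2, Unc5c and Efnb2 were 71, 72 and 128 bp wide. The Wnt5a call was lower as well (-2.17 ± 0.50, adjusted p = 0.00728).

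Genes with several progenitor-only sites included genes without counts as well as Mmrn1, described above. 1700100I10Rik, the gene with 3 sites, had no counts in mesoderm or HPCs of any genotype, as had 1810006J02Rik with 2 sites. Csn3, a milk casein gene with 2 sites, had no HPC counts. Trim3, a ubiquitin ligase with 2 sites, fell by 1.90 ± 0.39 (adjusted p = 0.00371, edgeR). Of the 59 genes with 2 or 3 sites, 32 were tested and 10 were called higher and 3 lower.

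Higher calls were more frequent where no mesoderm peak was assigned to the gene and where the 200 bp window about the site held GATA letters. Such a window can reach beyond the peak. Of the 336 genes without an assigned mesoderm peak, 100 were tested, of which 34 (34.0%) were higher and 9 lower, with a median log2 fold change of 0.55. Of the 891 genes with an assigned mesoderm peak, 679 were tested, of which 118 (17.4%) were higher and 93 (13.7%) lower, with a median of 0.01. Genes with GATA letters in the window were higher in 28 of 77 tested cases (36.4%) and lower in 4. Genes without them were higher in 124 of 702 (17.7%) and lower in 98. The 28 became 17 when the undifferentiated libraries were left out of the fit. That fit tested fewer members (538, against 779) and called 115 of them higher (21.4%), against 152 (19.5%). For RUNX letters the higher calls were 39 of 147 (26.5%) with and 113 of 632 (17.9%) without, and for ETS letters 67 of 321 (20.9%) with and 85 of 458 (18.6%) without. With SP letters they were 17 of 126 (13.5%). Genes with the nearest site upstream were higher in 70 of 300 cases (23.3%), and those with it downstream in 82 of 479 (17.1%).

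Other genes served as background for these counts. Those with a near site open in both stages and no progenitor-only site were called higher in 655 of 5998 cases (10.9%) and lower in 595 (9.92%). Genes with a mesoderm-only site and neither of the others were higher in 308 of 3237 cases (9.51%) and lower in 624 (19.3%). Genes with none of the 3 kinds of site were higher in 277 of 2805 cases (9.88%). These shares are descriptions, since genes near one another or in one pathway do not vary independently.

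**Figure D5:**
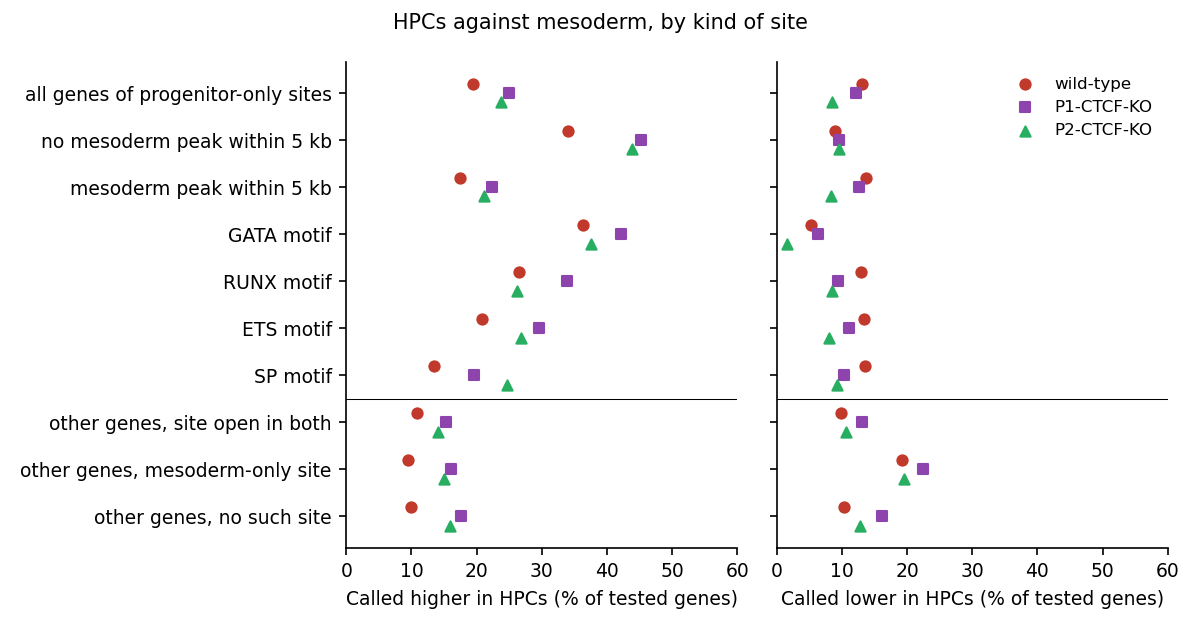
Share of tested genes (%) called higher (left) and lower (right) in HPCs than in mesoderm, for subgroups of the genes with a progenitor-only site (above the line) and for other genes by kind of near site (below it), in wild-type (red), P1-CTCF-KO (purple) and P2-CTCF-KO (green) cells. Genes with no mesoderm peak assigned within 5 kb and genes with a GATA motif have the highest shares of higher calls in all 3 genotypes, and genes with a mesoderm-only site have the highest shares of lower calls.

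The libraries of the CTCF-KO clones, which share none with the wild-type comparison, gave the same stage step again. In P1-CTCF-KO cells 156 of 623 tested members were higher in HPCs than in mesoderm (25%, against 16.5% of all tested genes) and 76 lower (12.2%, against 15.6%). In P2-CTCF-KO cells 148 of 623 were higher (23.8%, against 15.2%) and 53 lower (8.51%, against 12.9%). Of the 152 members higher in wild-type cells, 123 were called higher in P1-CTCF-KO (80.9% of the wild-type and 78.8% of the P1-CTCF-KO calls) and 112 in P2-CTCF-KO (73.7% and 75.7%). Over all tested genes, 75% and 67.7% of the wild-type higher calls were called in the 2 knockouts. Of the 102 members lower in wild-type cells, 54 were called lower in P1-CTCF-KO (52.9% of the wild-type and 71.1% of the P1-CTCF-KO calls) and 40 in P2-CTCF-KO (39.2% and 75.5%). For the wild-type lower calls of all tested genes the shares called in the knockouts were 57.8% and 48.5%, above those of the members. All 3 genotypes gave the higher call for 107 members and the lower call for 36. The matching counts over all tested genes were not made, so these numbers do not set the members apart.

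Erythroid and platelet members were called higher in both knockouts in every tested case (9 of 9 and 6 of 6), close to the whole lists (26 of 26 and 28 of 29 in each knockout), and of the leukocyte members Dock2 and Alox5ap were. Of the 336 genes without an assigned mesoderm peak, 73 were tested, of which 33 were higher in P1-CTCF-KO and 32 in P2-CTCF-KO, with 7 lower in each. Of the endothelial members, 1 of 5 tested was higher in P1-CTCF-KO (Fli1) and 5 of 5 in P2-CTCF-KO, where 2 of 17 and 11 of 17 were in the whole list. P2-CTCF-KO mesoderm had 0.413 to 0.638 CPM of the 8 summed endothelial markers. In P2-CTCF-KO HPCs these markers summed to 46.3 CPM in library D2.1 and to 6.75 to 23.1 CPM in the others. Opposite calls in wild-type and P2-CTCF-KO cells arose for 2 members, Cdh5 (4.86 ± 1.52 in P2-CTCF-KO, adjusted p = 0.0230, edgeR) and Arhgap31, a GTPase-activating protein, which was lower in wild-type (-2.94 ± 0.89, adjusted p = 0.0285) and higher in P2-CTCF-KO cells (3.76 ± 1.25, adjusted p = 0.0300). Neither wild-type call held without mesoderm B9.3, where Arhgap31 was at -0.88 ± 0.64 (adjusted p = 0.355). The difference between genotypes was not tested.

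No member was called different between knockout and wild-type HPCs. Of 1227 members 539 could be tested, and 0 were called higher or lower in P1-CTCF-KO or in P2-CTCF-KO HPCs, where 0% of all 7422 tested genes were called in either direction (edgeR). DESeq2 also called 0. At an unadjusted p under 0.05, 4 members were higher (0.742%, against 1.33% of all tested genes) and 8 lower (1.48%, against 2.17%) in P1-CTCF-KO HPCs. In P2-CTCF-KO HPCs 9 were higher (1.67%, against 1.29%) and 2 lower (0.371%, against 0.660%). Small differences may have gone undetected. P2-CTCF-KO HPC libraries also varied widely among themselves, as Thbs1 shows, at 22.9, 28.2, 34.6, 47.0 and 224.1 CPM.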

How the data were processed

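Per the labels and methods, the authors mapped poly(A)-minus RNA-seq reads to mm9 with STAR and deposited raw counts over exons and introns from featureCounts, without normalization. The annotation and strand setting are not given in the sources used here, so overlapping and antisense genes cannot be told apart. ATAC-seq and CTCF peak positions were deposited as the authors called them with MACS2 on merged reads aligned with Bowtie2, as starts and ends alone (unit: position, no score).

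Peaks were joined to gene starts (the 5′ end of each single-locus row) by a 1 bp overlap rule and a 5 kb limit on the midpoint, and sequences and GC content were read from the mm9 genome and places from GENCODE gene models of that build. Of the 25146 rows, 135 listed several loci and gave no start. The members and gene lists were chosen with earlier results of these data known, and support nothing by themselves. Counts were fitted in R 4.3.3 with edgeR 4.0.16 (TMM, filterByExpr with a minimum count of 10, quasi-likelihood test, Benjamini-Hochberg adjustment over all genes tested), with 9 wild-type libraries in 1 fit, 14 CTCF-KO libraries in another and 12 HPC libraries in the last. A call needed an adjusted p under 0.05 together with a log2 fold change above 1 in size. DESeq2 1.42.0 was an alternative. For genes without mesoderm counts a bound against 3 counts over the group is given, and for 1 to 3 counts a ratio with its exact 95% interval, which cover counting error only. p-values measure the spread between libraries, which include repeat libraries of a clone. No 2 libraries of a group held the same values (chi-square per gene from 4.03 to 86.7). Named genes were those of the blood and endothelial lists with a site, the 10 higher and 10 lower members with the smallest adjusted p and groups that do not overlap, and the 5 with most sites. Some genes that the rule names are not reported here. Of 25 candidate sites for printing, 1 on chromosome 18 and 11 touching an exon were left out, and Wnt5a, Sox2 and Arhgap31 were named after their values were seen. The fits were tested on simulated counts. Python 3.11.15 with pandas 2.3.3 and SciPy 1.17.1 was used for the joins and matplotlib 3.10.9 for the plots. Tiled-C, bisulfite and 416B RNA data were not used here.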

Additional observations from a re-analysis of the deposited data

Results flagged for a closer look

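Among 84 pairs of a named gene and a group of 4 or 5 HPC libraries, 26 (31.0%) had a library far from the others by Dixon's test, where chance would give about 1 in 20. Most lay in P2-CTCF-KO HPCs, and the genes are not independent, since they share the same libraries. Library D10.1 was far above the other 4 for blood genes, at 4.77 CPM for Alox5ap, 67.3 for Itga2b, 21.5 for Mmrn1, 108.5 for Plek, 389 for Prkca, 0.822 for Rac2, 14 for Rasgrp2, 22.4 for Rgs10, 54.7 for Ston2, 224.1 for Thbs1 and 21.5 for Tubb1. The 10 HPC markers summed to 242 CPM in that library and to 95.1 in the second library of the same clone.

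Library D2.1 was far above the other 4 for endothelial genes and for genes that were lower in HPCs, at 14.2 CPM for Cdh5, 7.70 for Efnb2, 7.25 for Fgd5, 7.48 for Luzp1, 26.6 for Peg10, 1.30 for Plvap, 1.08 for Robo4, 4.08 for Rps6ka2, 12 for Trim71, 16.1 for Unc5c and 7.98 for Yap1, and far below them for Uba7 at 1.76. The 7 mesoderm markers summed to 16.4 CPM there and to 3.09 in the second library of clone D2.1, and the 8 endothelial markers to 46.3 and 6.75. The part of either library in the P2-CTCF-KO results was not tested beyond leaving it out.

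In wild-type HPCs, Luzp1 at 4.40 CPM and Rps6ka2 at 1.16 were far above the others in B9.3, and Cdh5 at 3.28 was so in B9.3-2.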

How the results depend on the processing

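The share of tested members called higher in wild-type HPCs stayed above that of all tested genes under all 23 alternatives tried, from 13.4% (DESeq2, against 6.87% of all) to 27.7% (wider peaks, against 10.8%). Some counts moved with the rule for sites or with fewer samples. With starts within 1 kb, 706 sites gave 87 higher and 53 lower genes, and within 10 kb 233 were higher. Peaks wider than the median left 369 sites with 54 higher and 25 lower genes, and a gap of 500 bp to any mesoderm peak left 829 sites with 61 lower. Lower genes fell to 67 without the undifferentiated libraries in the fit, an alternative chosen after seeing the data. So was summing both undifferentiated libraries, technical replicates of 1 culture, to 1 sample, with which 49 members were higher and 37 lower in mesoderm than in undifferentiated mESCs, against 122 and 94. With clone as a replicate block, 104 were higher and 64 lower, but deviations of the 3 clones correlated at 0.21, -0.02 and -0.08 between stages, so the numbers do not pair the samples. Genes with a GATA motif called higher fell from 28 to 16 in that fit, which also left out the undifferentiated libraries.

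Leaving out each replicate in turn gave 122 to 148 higher and 85 to 106 lower members in wild-type HPCs, 98 to 118 and 67 to 81 in mesoderm against undifferentiated mESCs, 126 to 149 and 55 to 69 in P1-CTCF-KO, 136 to 165 and 43 to 79 in P2-CTCF-KO, and 0 in knockout against wild-type HPCs. Of 36 named genes past the threshold, 33 kept their call in every setting that tested them, and 32 of the 36 were tested in all 16. Fli1, Spi1 and Cdh5 lost theirs in at least 1 setting, and none of the 36 changed direction. Depth limits the HPC libraries of every genotype, which held 878966 (P2-CTCF-KO E9.1) to 1584401 counts (P2-CTCF-KO D10.1) outside ribosomal RNA and multi-locus entries.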
